A study of Mus musculus with 24 samples.

Results

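Loss of Smchd1 was examined in mouse embryonic stem (ES) cells that lack the TET enzymes. The comparison takes 3 libraries labelled quadKO (here quad KO, knockout of Tet1, Tet2, Tet3 and Smchd1) against 3 libraries labelled Tet_TKO (here Tet TKO, triple knockout of Tet1, Tet2 and Tet3), so 6 of the 24 libraries of the series, and every gene entry of the table that holds them. Both groups lack the Tet genes, and by their labels they differ by the Smchd1 knockout. The other libraries are of the genotypes Dux KO, Double KO (Smchd1 and Dux lost together), WT and Smchd1 KO, and the 12 WT and Smchd1 KO libraries are used below to set the same loss in Tet-carrying cells beside it. Cells grew without feeders on gelatin in serum and leukaemia inhibitory factor (LIF), and total RNA was sequenced after removal of ribosomal RNA. The design calls the 3 libraries of a genotype biological replicates with separate RNA isolations. The labels do not say how many clones stand behind a genotype or how the knockouts were made.

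SMCHD1 is a noncanonical protein of the SMC (structural maintenance of chromosomes) family that helps to keep the inactive X chromosome, some imprinted genes and some clustered gene families silent. The TET enzymes oxidise 5-methylcytosine, a step towards the removal of DNA methylation, and many germline and X-linked clustered genes are held silent by methylated promoters in ES cells. The set of genotypes addresses, among other things, whether the response to SMCHD1 loss needs the TET enzymes. In ES cells, DUX switches on genes of the 2-cell embryo such as the Zscan4 family, and the study also removed Dux.

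The Tet TKO libraries held 28.5 to 34.6 megareads in genes and the quad KO libraries 27.3 to 29.1 megareads, and values are given in CPM (gene counts scaled by the effective library size). Tet TKO libraries were close to each other, with a median gene standard deviation (SD) of 0.06 on the log2(CPM + 0.5) scale, against 0.13 among quad KO libraries. P-values measure the spread among these libraries, and the spread of Tet TKO was small. The quad KO libraries stood apart from Tet TKO, and from each other, at the level of whole chromosomes. Median expression of chromosome 6 genes lay 0.21, 0.28 and 0.27 log2 units below Tet TKO in quad KO 1, 2 and 3, that of chromosome 8 genes 0.18, 0.24 and 0.27 below, and that of X genes 0.24, 0.21 and 0.23 below. Chromosome 12 was lower by 0.12 and 0.16 in quad KO 1 and 2 and higher by 0.02 in quad KO 3. The summed level of 4 Y-linked genes was 60.8 to 63.9 CPM in Tet TKO, and 61.2, 239 and 3.805 CPM in quad KO 1, 2 and 3. The quad KO libraries thus differed among themselves there. With such shifts, clone and genotype cannot be told apart in the differences described below. On chromosomes 6, 8 and X, 48.7%, 47.4% and 46.4% of the tested genes were called lower in quad KO. For genes named by a fixed rule on these chromosomes, the value after each chromosome's median was set to 0 in every library is also given where it changes a call.

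**Figure D1:**
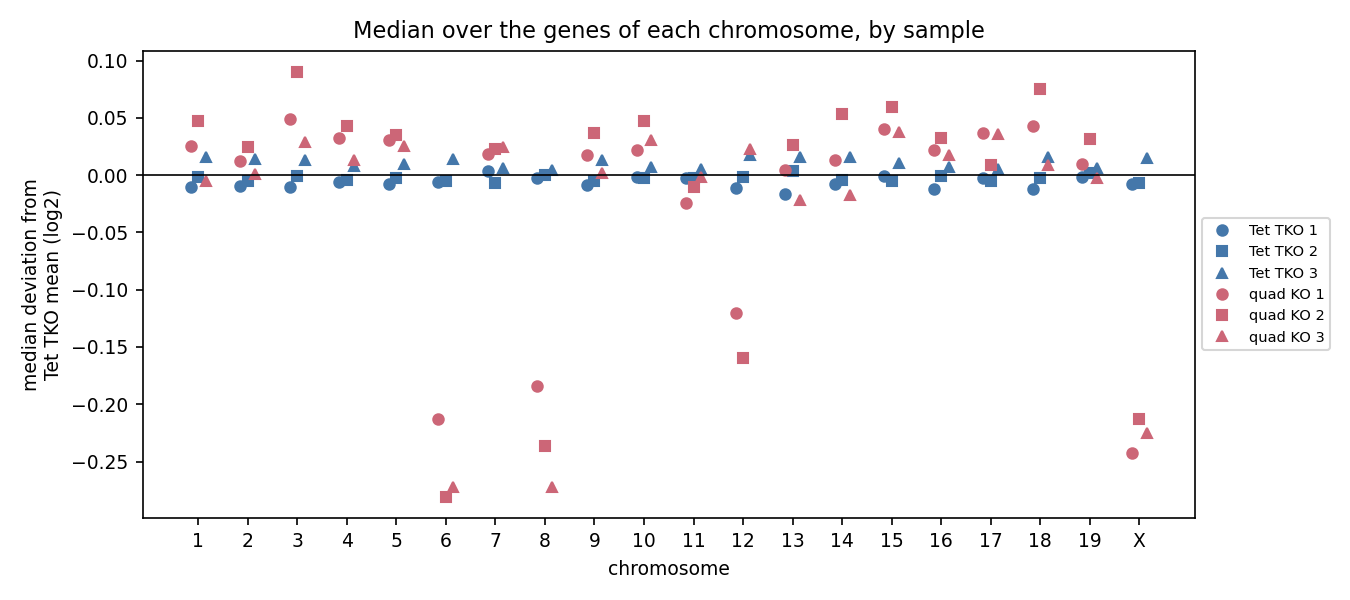
Median over the tested genes of each chromosome of the deviation from the Tet TKO mean, in log2 units (y axis), for each chromosome (x axis) and each of the 6 libraries (points; blue Tet TKO, red quad KO). The quad KO points lie about 0.2 to 0.3 below 0 on chromosomes 6, 8 and X, while the Tet TKO points stay near 0.

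Levels of the knocked-out genes come first, as a check of the labels. Smchd1 (ENSMUSG00000024054.5, chromosome 17) had 151, 152 and 161 CPM in the Tet TKO libraries and 18.1, 12.2 and 40.0 CPM in the quad KO libraries. The groups did not overlap, quad KO 3 kept the most Smchd1 RNA of the quad KO libraries, and the fall of 2.87 ± 0.36 (SE) on the log2(CPM + 0.5) scale passed the test (limma, Benjamini-Hochberg adjusted p = 0.000827). Tet1 had 270, 270 and 276 CPM in Tet TKO and 293, 281 and 293 CPM in quad KO, a difference of 0.09 ± 0.04 that did not pass (adjusted p = 0.0916). Transcripts of Tet2 were present at 329 to 341 CPM in Tet TKO and at 232 to 237 CPM in quad KO, and Tet2 fell by 0.52 ± 0.03 (adjusted p = 7.57e-05). Tet3, on chromosome 6, stood at 43.04 to 45.97 and 43.7 to 46.8 CPM and was not called (0.03, adjusted p = 0.716). With chromosome medians set to 0 it was called higher (0.29, adjusted p = 0.00322). A knockout allele can still be transcribed, and the labels do not give the deleted parts, so levels within this comparison are no check of the Tet labels. The Tet-carrying libraries, which were normalized separately, had far more Tet1 RNA. Its mean was 2244 CPM over the WT columns (range 2123 to 2346) and 1895 CPM over the Smchd1 KO columns. For Tet2 and Tet3 the WT means were 432 and 54.2 CPM, much nearer to the levels above. These differences from Tet-carrying cells were not tested.

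Of 37310 gene entries, 14920 had at least 0.5 CPM in at least 3 libraries and were tested. In quad KO, 2546 genes were higher (17.1%) and 3073 lower (20.6%) at an adjusted p under 0.05, 37.7% in all. These shares are the background for the counts of every gene list below. At a fold of at least 2, 203 were higher (1.36%) and 468 lower (3.14%). At a fold of at least 4 there were 2 higher and 93 lower, and at 8-fold 0 and 29. Large differences of quad KO from Tet TKO were thus mostly falls. Quad KO and Tet TKO did not overlap for 53.3% of genes tested, below for 28.2% and above for 25.1%. The numbers called depended on the libraries: without 1 Tet TKO library the count was 3541 to 3712, and without quad KO 3 it was 7638.

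**Figure D2:**
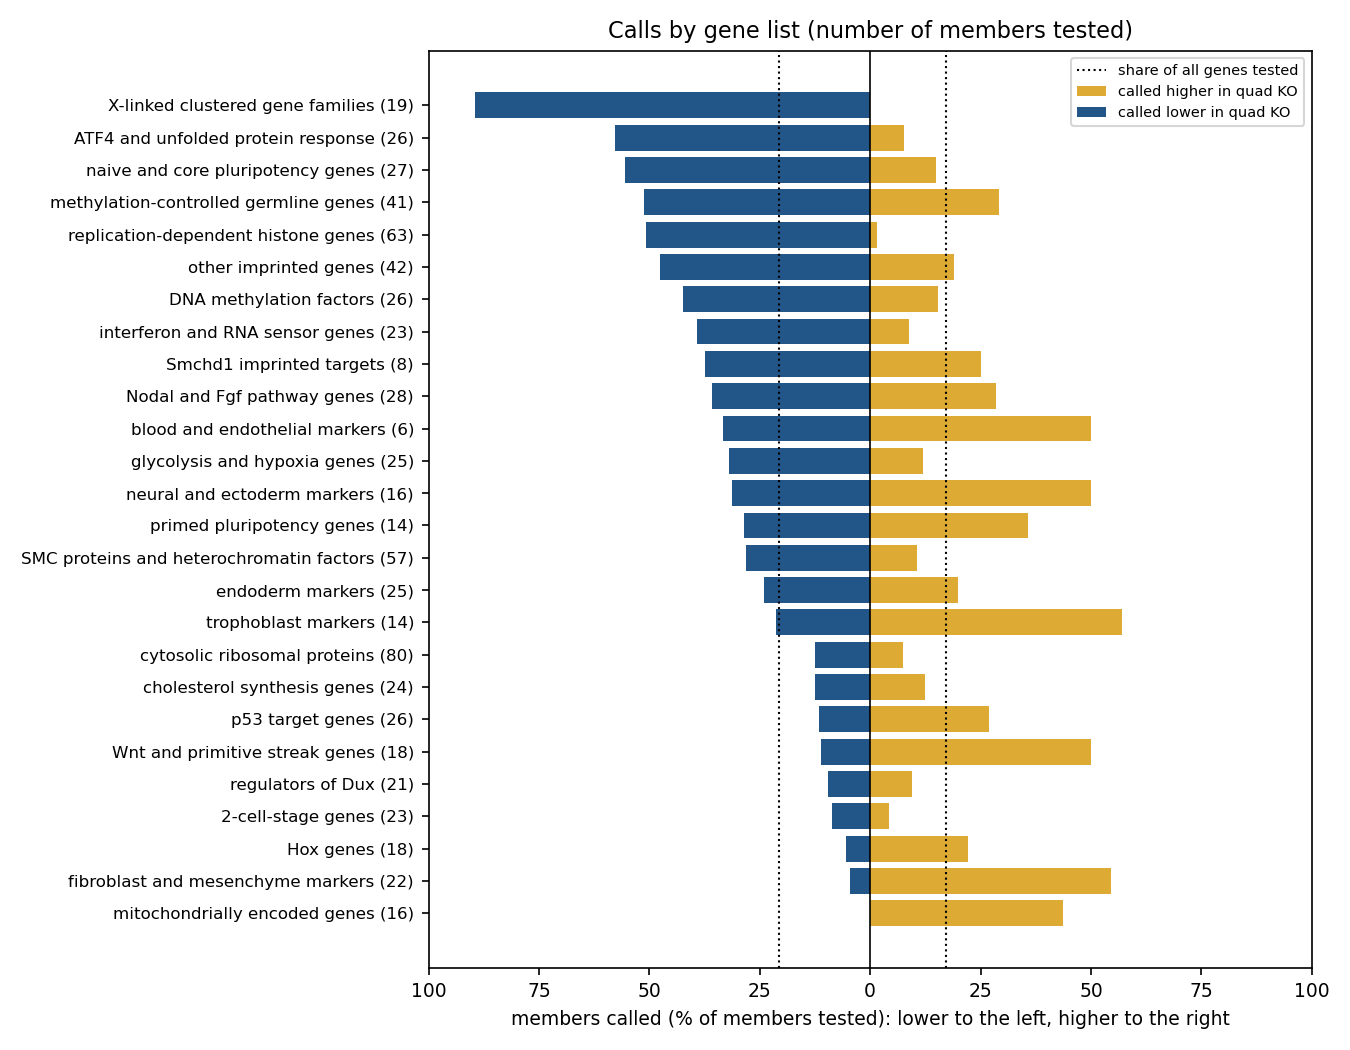
Share of the tested members of each gene list (rows, number tested in parentheses) called lower (blue, to the left) or higher (yellow, to the right) in quad KO, in percent (x axis). The dotted lines mark the shares over all genes tested, 20.6% lower and 17.1% higher. X-linked clustered families reach 89.5% lower. Trophoblast markers reach 57.1% higher, and fibroblast and mesenchyme markers 54.5% higher.

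The largest fall was that of Xlr3a, a member of an X-linked lymphocyte-regulated multigene family, from 18.3, 17.8 and 19.4 CPM to 0.334, 0.0707 and 0.144 CPM (log2 change -4.82 ± 0.15, adjusted p = 3.94e-06, limma). Next came Pramel6, one of the PRAME-like genes active in early embryos and naive ES cells, with 9.29, 8.95 and 8.80 CPM in Tet TKO and 0.0334, 0.0353 and 0.0718 CPM in quad KO (-4.12 ± 0.11, adjusted p = 2.67e-06). Its neighbour Pramel7 went from 9.77, 9.54 and 10.2 CPM to 0.334, 0 and 0.251 CPM (-3.93 ± 0.19, adjusted p = 2.08e-05). Both genes were thus nearly silent in every quad KO library. They were also low in the Tet-carrying libraries, which were normalized separately. Means of Pramel6 and Pramel7 there were 0.0519 and 0.199 CPM in WT and 0.167 and 0.517 CPM in Smchd1 KO. Inhbb, which encodes a subunit of activin and inhibin, fell from 18.1, 17.7 and 14.9 to 1.10, 0.424 and 0.538 CPM (-3.91 ± 0.21, adjusted p = 3e-05). Pnma5, an X-linked gene derived from a retrotransposon, fell from 47.3, 51.7 and 50.2 to 3.54, 2.65 and 2.87 CPM (-3.84 ± 0.11, adjusted p = 2.67e-06). Aard (-4.04), the X-linked 1700013H16Rik (-3.81), the meiotic prolyl isomerase gene Fkbp6 (-3.66) and Dnajc5g (-3.60), a chaperone gene known from testis, were among the 12 largest falls as well. Only called genes whose groups do not overlap could enter the 12, so the lack of overlap in these genes is not a result. The remaining members of the 12 were the imprinted noncoding RNAs H19, Rian and Meg3, described below.

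The sequences just upstream of these genes are shown because silencing by DNA methylation acts on CpG dinucleotides, and the 5 largest falls among coding genes with a listed promoter differ widely in how many they have. Each line gives 250 bases before the annotated start, 5′ to 3′ on the gene's strand, from RefSeq (GRCm38.p6; the expression files use mm9), with each CpG in capitals. Xlr3a is at chrX:73097096-73097345 (minus strand), Pramel6 at chr2:87506315-87506564 (plus), Pramel7 at chr2:87492419-87492668 (minus), Inhbb at chr1:119422249-119422498 (minus) and Pnma5 at chrX:73037104-73037353 (minus).
Xlr3a: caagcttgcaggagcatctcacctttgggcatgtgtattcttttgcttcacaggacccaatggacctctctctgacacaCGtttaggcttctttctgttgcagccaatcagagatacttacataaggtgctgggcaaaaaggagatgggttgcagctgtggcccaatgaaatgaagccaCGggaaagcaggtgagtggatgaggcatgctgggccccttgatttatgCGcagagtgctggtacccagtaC
Pramel6: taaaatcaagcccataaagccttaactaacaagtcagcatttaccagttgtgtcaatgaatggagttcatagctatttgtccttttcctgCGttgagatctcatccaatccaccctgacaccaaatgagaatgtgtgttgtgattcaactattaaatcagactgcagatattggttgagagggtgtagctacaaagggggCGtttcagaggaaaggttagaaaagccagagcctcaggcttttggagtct
Pramel7: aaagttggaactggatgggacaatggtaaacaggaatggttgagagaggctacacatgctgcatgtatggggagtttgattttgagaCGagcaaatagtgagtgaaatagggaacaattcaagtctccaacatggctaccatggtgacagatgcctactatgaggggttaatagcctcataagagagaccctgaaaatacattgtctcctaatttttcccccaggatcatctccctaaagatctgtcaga
Inhbb: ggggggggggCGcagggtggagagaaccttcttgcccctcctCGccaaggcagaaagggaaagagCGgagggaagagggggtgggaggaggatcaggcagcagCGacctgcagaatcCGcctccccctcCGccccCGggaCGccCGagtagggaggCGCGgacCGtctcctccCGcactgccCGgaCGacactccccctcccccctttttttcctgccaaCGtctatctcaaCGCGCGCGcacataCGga
Pnma5: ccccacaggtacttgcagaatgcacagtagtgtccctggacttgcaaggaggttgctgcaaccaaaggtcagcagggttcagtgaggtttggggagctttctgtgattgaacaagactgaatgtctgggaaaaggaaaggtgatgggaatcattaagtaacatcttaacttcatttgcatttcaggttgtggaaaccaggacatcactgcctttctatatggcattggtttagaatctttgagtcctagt
These stretches hold 3, 2, 1, 21 and 0 CpG in that order. Pramel6 and Pramel7 lie close together on chromosome 2, on opposite strands.

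Across coding genes outside chromosome 18 that could be matched to a RefSeq window from 250 bases before to 50 after the start (10850 of 13202 tested, 82.2%), the median window held 21 CpG. Among genes at least 2-fold lower, 333 of 410 (81.2%) had a window, the median was 10 CpG, and 30.03% of windows held 5 or fewer, against 9.14% of all. In windows with 0 to 2 CpG, 12.9% of 333 genes were at least 2-fold lower and 3.003% at least 2-fold higher. Those shares were 2.60% and 1.24% of the 3236 genes with 11 to 20 CpG, and 1.22% and 0.72% of the 2209 genes with 31 to 65 CpG. The share of strong falls thus went down with CpG number over these bins. The share of strong rises was also highest in the windows with 0 to 2 CpG. Of genes at least 2-fold higher, 76.4% had a window, and of genes under 10 CPM in Tet TKO 79.3%. Both are below the 80% set as the minimum, so a check of the CpG number over the rises, or at matched level, is void.

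Among the rises, the largest were an entry named mmu-mir-689-2, with 317, 346 and 713 CPM in Tet TKO and 1029, 2251 and 2682 CPM in quad KO (2.10 ± 0.41, adjusted p = 0.00556), and the mitochondrial ribosomal RNA mt-Rnr1 (2.03 ± 0.46, adjusted p = 0.0106). The identifier of the first entry carries the name Gm23935 in a later annotation. Levels of mt-Rnr1 were 9.90, 17.2 and 37.4 CPM in Tet TKO and 50.2, 108 and 85.5 CPM in quad KO, and ran from 60.2 to 1929 CPM among the WT columns of the other table. Ribosomal RNA was removed before sequencing, and the part of that step in these rises was not tested. Mal, a gene for a membrane proteolipid of epithelia and myelin, rose from 0.814, 1.18 and 1.16 to 5.81, 7.25 and 3.91 CPM (1.96 ± 0.21, adjusted p = 0.000473). The X-linked Fndc3c1 rose from 9.80, 9.75 and 8.25 to 37.5, 35.6 and 33.3 CPM (1.88 ± 0.09, adjusted p = 1.91e-05), against the direction of most called X-linked genes. Kif1a, a kinesin motor of axonal transport, stood at 8.40 to 8.53 CPM in Tet TKO and at 26.4 to 35.1 CPM in quad KO (1.73 ± 0.11). Mef2c, a transcription factor of muscle, heart and neural cells (1.72), Cib2 (1.67), Pde2a (1.59), the growth factor gene Igf2 (1.58), the membrane protease gene Tmprss2 (1.58), Cdx2 (1.57) and the integrin adaptor gene Fermt1 (1.56) complete the 12 largest rises. The entry called Pde2a carries another name (Gm45837, a locus that overlaps it) in the later annotation.

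**Figure D3:**
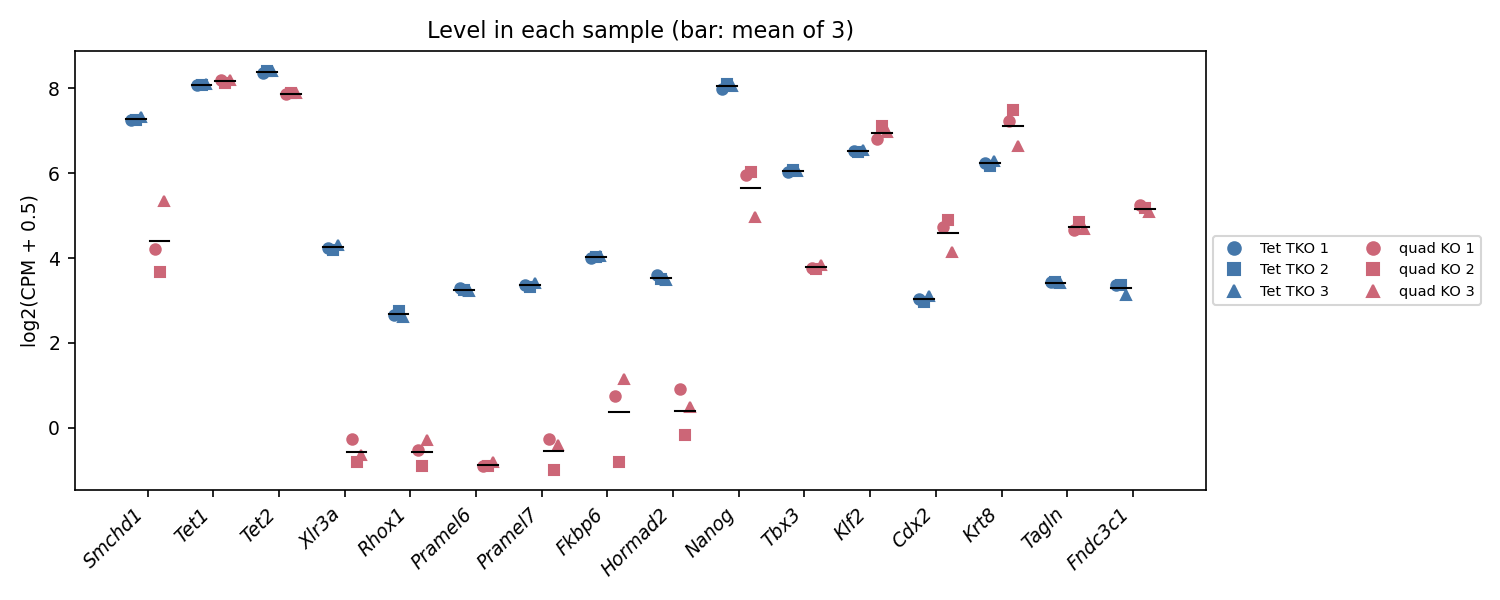
Level of 16 genes in log2(CPM + 0.5) (y axis) in each of the 6 libraries (blue Tet TKO, red quad KO; the marker shape gives the replicate, the bar the mean of 3). Xlr3a, Rhox1, Pramel6 and Pramel7 sit near the floor in every quad KO library, Nanog and Tbx3 fall to lower but clear levels, and Cdx2, Krt8, Tagln and Fndc3c1 are higher.

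X-linked clustered gene families moved together. These families (Xlr, Rhox, Magea, Mageb, Nxf and the like) are expressed in germ cells, placenta or early embryos and are known targets of DNA methylation. Of 74 entries, 19 passed the expression filter, 17 were called lower and 0 higher, with a median log2 change of -2.63, against -0.01 over all genes tested. Members such as Xlr3a, Xlr3c, Xlr4a and Xlr5a were under 0.5 CPM in every quad KO library. They passed the filter only through Tet TKO, so this count and median follow in part from the filter. With no filter 26 of 53 were lower and 0 higher, with a median of -0.23. Their summed level over the 74 entries was 95.4 to 98.2 CPM in Tet TKO and 14.04 to 17.96 CPM in quad KO.

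All 9 tested Xlr genes fell. Xlr3c had 6.75, 7.88 and 7.96 CPM and then 0.368, 0.318 and 0.287 CPM (-3.28 ± 0.12, adjusted p = 7.67e-06). Xlr5a went from 4.56 to 5.73 CPM to 0.0334, 0 and 0.0359 CPM, and Xlr4a from 4.58 to 6.19 CPM to 0.0334, 0 and 0 CPM (-3.45 and -3.47). In the separately normalized WT libraries, Xlr3c, Xlr5a and Xlr4a had means of 0.170, 0.101 and 0.287 CPM. Xlr5b, at 1.07 to 1.42 CPM in Tet TKO, had no read in any quad KO library. Copies of Xlr3, Xlr4 and Xlr5 are near-identical, and how the authors' counting split shared reads is not given in the sources used here, so values of single copies are uncertain.

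The Rhox homeobox cluster followed the same direction. Rhox1 went from 5.83, 6.22 and 5.61 to 0.200, 0.0353 and 0.323 CPM (-3.24 ± 0.17, adjusted p = 3e-05), and Rhox6 from 6.04, 7.50 and 7.18 to 0.635, 0.353 and 0.718 CPM (-2.80). Rhox13, Rhox9 and Rhox2a fell by 1.60, 1.43 and 1.47. The mRNA export factor genes Nxf3 (-3.17) and Nxf7 (-0.89) and the cancer-testis gene Magea4 (-1.30; no read in quad KO) also fell. Not called were Mageb16, the most abundant member, at 10.1 to 11.5 and 7.11 to 12.3 CPM (-0.15 ± 0.18), and Mageb16-ps1. With chromosome medians set to 0, 17 of 19 were again called lower, with a median of -2.40. Before that step, the median change over all tested X genes was -0.22. The 2 medians were not tested against each other. Both a filter at 2 CPM (11 of 12 lower) and no filter (26 of 53) changed how many were counted. The size of the fall depends on the pseudocount, since most members approach 0: the median was -3.75 with 0.1 and -1.28 with 2, -5.35 with edgeR, and -0.23 with no filter.

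Xist, the noncoding RNA that coats the inactive X chromosome and is also held silent on an active X, fell from 10.8, 9.51 and 9.92 to 1.14, 1.13 and 1.08 CPM (-2.71 ± 0.10, adjusted p = 8.72e-06). The groups were far apart and the quad KO libraries close to each other. Its antisense partner Tsix had 19.2 to 22.5 and 15.2 to 19.5 CPM and was not called (-0.26, adjusted p = 0.104). Whether strand was used in counting is not given in the sources used here, so reads of this overlapping pair may have been exchanged.

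Methylation-controlled germline genes changed in both directions. These meiosis and piRNA genes (piRNAs are small RNAs that guard the germline against transposons) have CpG-rich promoters that are methylated in somatic cells. Of 46 entries, 41 were tested, 21 were lower and 12 higher, with a median of -0.61. The summed level moved from 700 to 723 CPM to 572 to 594 CPM.

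The largest fall in the list was that of 1700013H16Rik, from 8.04, 9.51 and 9.69 to 0.100, 0.106 and 0.359 CPM (-3.81). Meiotic genes followed. Fkbp6 had 15.57, 15.77 and 15.97 CPM in Tet TKO and 1.17, 0.0707 and 1.72 CPM in quad KO. Hormad2, a component of meiotic chromosome axes, went from 11.6, 10.9 and 10.7 to 1.37, 0.389 and 0.897 CPM (-3.12 ± 0.24, adjusted p = 0.000131). Smc1b, the meiotic cohesin subunit, fell from 19.9, 22.7 and 24.8 to 3.44, 1.80 and 3.77 CPM (-2.76 ± 0.22, adjusted p = 0.000153). In Fkbp6, Hormad2 and Smc1b quad KO 2 was the lowest library. Smaller falls were found for the meiotic cohesin gene Stag3 (-1.12), the RNA-binding protein gene Dazl (-1.32), the Argonaute-family gene Piwil2 (-0.75) and the testis tubulin gene Tuba3a (-1.44). Tuba3a and Tuba3b are near-identical copies, and both fell.

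Rises were smaller. Ddx4, the vasa RNA helicase of germ cells, rose from 43.8, 42.2 and 42.3 to 71.0, 73.5 and 70.5 CPM (0.74 ± 0.05, adjusted p = 6.13e-05). Sycp3, Sycp2 and Sycp1, all of the synaptonemal complex that joins paired chromosomes, rose by 0.88, 0.86 and 0.39. The piRNA pathway genes Tdrd1 (0.93), Tdrd5 (0.80), Tdrd6 (1.06) and Mael (0.51) rose as well, as did Tex15 (0.64), the list's most abundant member, and the testis bromodomain gene Brdt (0.81). Genes of 1 meiotic structure thus moved apart: the axis gene Hormad2 and the cohesin gene Smc1b fell while Sycp3 rose. Promoter windows of the germline members called lower held a median of 16.5 CpG (18 of 21 matched), and those of members called higher 20.5 (10 of 12 matched).

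Genes of the 2-cell stage, the class that DUX turns on, did not rise as a group in quad KO. Of 40 entries, 23 were tested, 1 was higher (4.35%) and 2 were lower (8.70%), with a median of -0.33. Over all genes tested 17.1% were higher and 20.6% lower. Their summed level was 108 to 113 CPM in Tet TKO and 89.9, 49.0 and 125 CPM in quad KO. Quad KO 2 had the lowest sum, and without it the list's median was 0.14, with the same counts of 1 higher and 2 lower. Without quad KO 3 there were 9 lower.

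Zscan4d, a member of a tandem family of telomere-associated zinc finger genes, illustrates the spread, with 12.8, 12.2 and 10.9 CPM in Tet TKO and 11.7, 3.22 and 12.9 CPM in quad KO (-0.55 ± 0.44, adjusted p = 0.351). The deubiquitinase genes Dub1 (-0.11), Dub1a (-0.18) and Usp17l5 (-0.31), the retrogene Zfp352 (0.15) and the PRAME-like genes Gm13109 (-0.03) and Gm13078 (-0.08) were not called. Standard errors for these ran from 0.27 to 0.40. A change had to be well above its standard error to be called, so changes larger than 0.40 could also have been missed. Zscan4 and Dub copies share sequence, and their single values are uncertain.

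The called member that rose was Zfp951, from 11.1, 9.40 and 11.5 to 15.8, 17.8 and 20.2 CPM (0.72 ± 0.12, adjusted p = 0.00244). The X-linked deubiquitinase gene Usp26 fell from 26.0, 25.2 and 27.2 to 6.95, 6.72 and 7.32 CPM (-1.83 ± 0.07, adjusted p = 1.26e-05). Gm2016 fell from 0.761 to 1.15 CPM to 0.141 to 0.601 CPM (-0.81, adjusted p = 0.0214), and its call was lost without Tet TKO 1 or Tet TKO 3. The entry named Dux was below the expression filter. It had 0.207 to 0.492 CPM in Tet TKO and 0.247 to 0.682 CPM in quad KO, which overlap. Its identifier carries the name AW822073 in a later annotation. That annotation gives a Dux family name (Duxf3) to another entry, Gm10807, also not tested. Gm10807 had 0.237, 0.277 and 0.492 CPM in Tet TKO and 0.100, 0 and 0.323 CPM in quad KO, and these overlap too.

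Regulators of Dux were mostly at like levels. Of 21 tested, 2 were higher and 2 lower, beside 17.1% and 20.6% of all genes tested. The number higher was 6 without quad KO 3, 5 after quantile normalization and 4 with edgeR. Trim28, the KAP1 corepressor, fell from 1748, 1740 and 1729 to 1394, 1303 and 1482 CPM (-0.32 ± 0.05, adjusted p = 0.00179), and Pcgf6, of the noncanonical Polycomb complex PRC1.6, fell by 0.26. Lin28a rose by 0.20 and Zfp281 by 0.14, the latter without a call once chromosome medians were set to 0. The DUX activators Dppa2 (-0.05) and Dppa4 (0.13) and the nucleolar protein gene Ncl (0.06) were not called.

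Imprinted genes, which are expressed from 1 parental allele through methylated control regions, showed some of the largest changes and wide differences between quad KO libraries. Of 42 tested imprinted genes outside the known SMCHD1 targets, 20 were lower and 8 higher. That count of lower genes was 10 without Tet TKO 1, 2 or 3, 13 with edgeR and 12 with DESeq2.

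At the Igf2-H19 domain of chromosome 7, the noncoding RNA H19 had 281, 262 and 274 CPM in Tet TKO and 10.7, 2.19 and 131 CPM in quad KO. The fetal growth factor gene Igf2 had 70.1, 64.2 and 68.8 CPM and 241, 324 and 108 CPM. The order of the quad KO libraries was opposite in H19 and Igf2: quad KO 2 was lowest for H19 and highest for Igf2, and quad KO 3 the reverse. H19 fell by 4.11 ± 1.18 (adjusted p = 0.0277), but edgeR gave -2.50 (adjusted p = 0.0992) and DESeq2 -2.49 (adjusted p = 0.152), and the call was also lost without quad KO 1 or any 1 Tet TKO library. Without quad KO 2 and quad KO 3 the change of H19 was -2.83 and -5.64. Igf2 rose by 1.58 ± 0.34 (adjusted p = 0.00912) and by 1.25 to 2.04 without 1 library. Cdkn1c, a cell cycle inhibitor gene of the adjoining domain, rose from 34.2 to 36.1 CPM to 68.4, 52.9 and 97.9 CPM (0.99), and Phlda2 rose by 0.57.

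The maternally expressed noncoding RNAs of the Dlk1-Meg3 domain on chromosome 12 fell together, library by library. Meg3 had 80.8, 76.8 and 75.7 CPM in Tet TKO and 44.4, 0.460 and 7.36 CPM in quad KO. Rian had 190 to 193 CPM and then 103, 1.10 and 17.98 CPM, and Mirg 17.1 to 20.6 CPM and then 10.2, 0.106 and 1.69 CPM. In all 3 the order was quad KO 1, 3, 2 from high to low, from a moderate fall to near silence. The falls of Meg3 (-3.49 ± 1.15, adjusted p = 0.046) and Rian (-3.72 ± 1.25, adjusted p = 0.0494) were just past the threshold. Under edgeR they were -2.14 and -2.21 (adjusted p = 0.103 and 0.112), and they lost the call under DESeq2, without any 1 Tet TKO library, with chromosome medians set to 0, with a pseudocount of 0.1 and with either other filter. Without quad KO 2 the changes of Meg3 and Rian were -2.06 and -2.13, and without quad KO 1 they were -4.83 and -5.14 (adjusted p = 0.00721 and 0.00971). Dlk1, the paternally expressed gene of the domain, went from 6.65 to 7.68 CPM to 4.41, 2.12 and 3.95 CPM (-0.99 ± 0.22, adjusted p = 0.0109).

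On chromosome 6, the retrotransposon-derived Peg10 had 2521, 2509 and 2552 CPM in Tet TKO and 308, 1983 and 2115 CPM in quad KO, and it was not called (-1.21 ± 0.65, adjusted p = 0.18). Its neighbour Sgce, a sarcoglycan gene, had 12.48 to 12.99 CPM and then 1.37, 7.74 and 5.49 CPM (-1.55, adjusted p = 0.0352). For both, quad KO 1 was the low library. Without quad KO 1, Peg10 fell by 0.30 (limma, adjusted p = 0.00359). That is near the shift of the chromosome 6 median in quad KO 2 and 3 (-0.28 and -0.27). Without quad KO 3, Peg10 fell by 1.69 (limma, adjusted p = 0.0292). Nnat, a proteolipid gene of chromosome 2, went from 8.88 to 9.90 CPM to 5.45, 0.0353 and 1.18 CPM (-2.51 ± 0.73, adjusted p = 0.0287), in the order seen for Meg3.

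Some other imprinted genes changed by like amounts in every quad KO library. Plagl1, a zinc finger gene of chromosome 10, fell from 30.7, 28.0 and 26.8 to 10.63, 10.57 and 11.02 CPM (-1.37 ± 0.07, adjusted p = 3.5e-05). Mest fell in every quad KO library but by less even amounts, from 454 to 462 CPM to 121, 178 and 210 CPM (-1.47 ± 0.17, adjusted p = 0.00061). On chromosome 11, Grb10, an adaptor that restrains growth signalling, rose from 201, 209 and 202 to 392, 354 and 351 CPM (0.84 ± 0.05, adjusted p = 5.32e-05), while its neighbour Ddc fell by 1.38 and Zrsr1 by 0.69. Peg3 had 688 to 703 and 694 to 874 CPM and was not called (0.14).

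**Figure D4:**
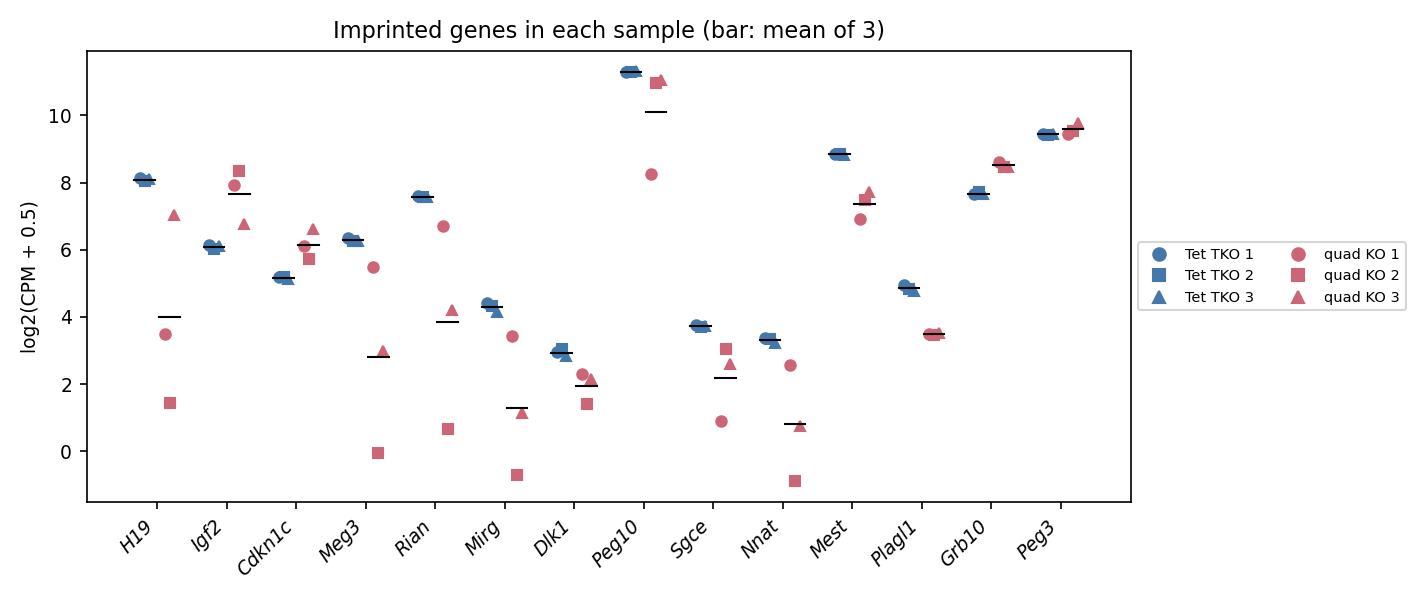
Level of 14 imprinted genes in log2(CPM + 0.5) (y axis) in each of the 6 libraries (blue Tet TKO, red quad KO; the marker shape gives the replicate, the bar the mean of 3). H19, Meg3, Rian, Mirg and Nnat spread widely among quad KO libraries, Peg10 and Sgce are low in quad KO 1, and Plagl1 and Grb10 shift by like amounts in all 3.

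Among 8 tested genes from imprinted clusters known as SMCHD1 targets, 2 were higher (25%) and 3 lower (37.5%). Over all genes tested the shares were 17.1% and 20.6%. Magel2, a ubiquitin ligase regulator of the Snrpn cluster, rose from 1.25, 1.52 and 1.65 to 2.74, 2.90 and 4.49 CPM (0.95 ± 0.19, adjusted p = 0.00588). Ndn of the same cluster rose from 12.6 to 13.3 CPM to 15.13 to 18.04 CPM (0.34, adjusted p = 0.0152), a call that was lost without Tet TKO 2, Tet TKO 3 or quad KO 1. Peg12 fell by 1.12 ± 0.14 (adjusted p = 0.000826), so genes of this cluster moved in both directions. Snrpn, at 302 to 308 and 267 to 285 CPM, fell by 0.14 (adjusted p = 0.0203), and this call was lost without quad KO 1 or any 1 Tet TKO library. Pon3, a paraoxonase gene of the Peg10 region, fell from 2.17 to 2.70 CPM to 0.835, 0.283 and 0.897 CPM (-1.35 ± 0.23, adjusted p = 0.0032). Igf2r (-0.02), Pon2 (-0.15) and Mkrn3 (0.23) were not called.

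Clustered protocadherins and Hox genes are further families with SMCHD1-bound clusters. Of 25 protocadherin entries, 2 were tested. Pcdha11 rose from 0.543, 0.622 and 0.579 to 1.64, 1.24 and 2.15 CPM (0.99 ± 0.17, adjusted p = 0.00346), and Pcdhgc5 was at 80.9 to 82.0 and 85.4 to 102 CPM (0.19, adjusted p = 0.0561). Of 18 tested Hox genes, 4 rose (22.2%) and 1 fell (5.56%), beside 17.1% and 20.6% of all genes tested. Hoxd13 went from 8.99, 9.72 and 8.07 to 14.8, 16.9 and 14.5 CPM (0.76 ± 0.10, adjusted p = 0.00107), and its neighbours Hoxd11 and Hoxd12 rose by 0.87 and 0.67. Hoxc10 rose by 0.70. Hoxa10, on chromosome 6, fell from 2.28 to 2.72 CPM to 0.318 to 0.826 CPM (-1.49 ± 0.19, adjusted p = 0.000855). With a filter at 2 CPM the number of Hox genes called higher was 1.

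Genes of naive and core pluripotency fell more often than they rose: 15 of 27 were lower and 4 higher, with a median of -0.32. The naive factors carried the largest falls. Nanog had 252, 276 and 268 CPM in Tet TKO and 61.5, 65.0 and 30.8 CPM in quad KO (-2.40 ± 0.25, adjusted p = 0.00038). Tbx3, a T-box factor of the naive network, fell from 64.9, 66.5 and 66.1 to 13.1, 12.9 and 13.7 CPM (-2.27 ± 0.05, adjusted p = 2.67e-06). Prdm14, a repressor of Fgf signalling and of DNA methyltransferase genes, fell by 2.18 and the nuclear receptor gene Esrrb by 1.92. Esrrb was at 180 CPM in each Tet TKO library and at 79.9, 48.8 and 27.1 CPM in quad KO.

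Klf4 (-1.74), the X-linked Nr0b1 (-1.72), Tcl1 (-1.82), Zfp42 (-1.34), Nr5a2 (-0.95), Gdf3 (-0.82), Fgf4 (-0.75) and Sox2 (-0.48) were lower as well. Pou5f1, which encodes the core factor OCT4, had 733 to 740 and 694 to 718 CPM and was not called (-0.06 ± 0.03, adjusted p = 0.157). Sall4 (0.08), Dppa2 (-0.05) and Tdgf1 (-0.13) were not called either. Klf2, a naive factor downstream of LIF, rose from 90.3 to 93.1 CPM to 111, 137 and 125 CPM (0.43 ± 0.07, adjusted p = 0.00303), against the direction of Klf4. Dppa5a (0.29), Tdh (0.24) and Lin28a (0.20) also rose. The RNA for OCT4 thus stayed at a like level while Nanog, Esrrb, Tbx3 and Klf4 fell.

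Primed pluripotency genes, which mark the later epiblast, split 5 higher (35.7%) and 4 lower (28.6%) of 14. Over all genes tested the shares were 17.1% and 20.6%. The number of primed genes called lower was 1 without Tet TKO 1, 2 or 3. Pim2 (0.61), Sall2 (0.58), Cdh2 (0.79) and Sox3 (0.54) rose, while Fgf5 (0.74 ± 0.27, adjusted p = 0.0655) and Otx2 (0.20) were not called. Of 28 Nodal and Fgf pathway genes, 8 were higher (28.6%) and 10 lower (35.7%). The Fgf feedback genes moved apart: the ERK phosphatase gene Dusp6 rose from 229, 236 and 231 to 298, 302 and 308 CPM (0.38 ± 0.03, adjusted p = 0.000216), Spred1 and Spred2 rose by 0.44 and 0.34, and Dusp4 fell by 0.49. Spry2 (0.00) and Spry4 (-0.03) were not called. Among ligands, Fgf15 fell by 1.01, Bmp4 from 13.7 to 16.7 CPM to 3.36 to 5.67 CPM (-1.67 ± 0.17, adjusted p = 0.000397) and Lefty2 by 0.86, while Bmp2 rose by 0.74. Nodal was not called (0.12).

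Markers of other cell types that an ES culture can hold were examined as lists. Wnt and primitive streak genes were 9 higher and 2 lower of 18, with a summed level of 112 to 115 CPM in Tet TKO and 136 to 169 CPM in quad KO. The number higher was 4 without Tet TKO 2 and 5 without Tet TKO 3. Cdx2, a homeobox factor of trophectoderm and posterior embryo, rose from 7.73, 7.26 and 8.04 to 26.1, 29.4 and 17.3 CPM (1.57 ± 0.18, adjusted p = 0.000566). The mesodermal factor gene T rose from 0.277 to 0.746 CPM to 1.03 to 2.41 CPM (1.07), Mixl1 by 0.73 and the stem cell receptor gene Lgr5 by 0.78. The secreted Wnt inhibitor gene Notum fell by 0.95, and the Wnt target Axin2 was not called (-0.03).

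Trophoblast markers were 8 higher and 3 lower of 14, and 5 higher without Tet TKO 1. Their summed level was 361 to 369 CPM in Tet TKO and 571, 676 and 382 CPM in quad KO, so quad KO 3 lay closest to Tet TKO. The epithelial keratin genes rose together: Krt7 from 7.74 to 8.51 CPM to 16.6, 21.7 and 12.9 CPM (1.00), Krt8 from 71.6 to 77.3 CPM to 150, 178 and 98.6 CPM (0.88), and Krt18 by 0.97. The call of Krt18 was lost without Tet TKO 1 or quad KO 1. Hand1 rose by 1.16. Gata3, a trophectoderm factor, fell from 27.2, 27.5 and 27.6 to 10.9, 13.7 and 6.96 CPM (-1.39 ± 0.21, adjusted p = 0.00173), and Fgfr2 and Tead4 fell by 0.69 and 0.58. Cdx2 and Gata3, which mark the same lineage, thus moved in opposite directions.

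Neural and ectoderm markers were 8 higher and 5 lower of 16. The transcription factor genes Zic1 and Pax3 rose, from 0.509 to 0.752 and 0.305 to 0.380 CPM to 2.37 to 3.50 and 1.18 to 1.52 CPM (1.55 and 1.19). The progenitor filament gene Nes rose by 0.76 ± 0.08 (adjusted p = 0.000337). Genes of the neuronal cytoskeleton fell: Nefm from 32.2, 35.0 and 35.7 to 6.22, 4.63 and 2.15 CPM (-2.95 ± 0.30, adjusted p = 0.000331), Nefl by 1.23, Tubb3 by 0.89 and Stmn2 by 0.80. With a filter at 2 CPM 5 members were called higher.

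Fibroblast and mesenchyme markers were 12 higher and 1 lower of 22, with a summed level of 700 to 717 CPM in Tet TKO and 854 to 910 CPM in quad KO. Tagln, a smooth muscle actin-binding protein gene, rose from 10.3, 10.3 and 10.1 to 24.9, 28.5 and 25.4 CPM (1.32 ± 0.08, adjusted p = 4.73e-05). The fibronectin gene Fn1 rose from 369, 370 and 390 to 506, 576 and 516 CPM (0.50 ± 0.05, adjusted p = 0.000469). Lox (1.34), Acta2 (1.33), the collagen genes Col6a1 (1.14), Col6a2 (1.13) and Col5a1 (0.78) and Thy1 (0.81) rose too, while Vim (-0.27) and Col1a2 (-0.02) were not called and Zeb1 fell by 0.37. Col1a1 and Col3a1, defining markers of fibroblasts, rose by 0.50 and 0.73 but stayed at 5.02 to 5.75 and 0.535 to 1.18 CPM in quad KO.

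Endoderm markers were 5 higher (20%) and 6 lower (24%) of 25, near the 17.1% and 20.6% of all genes tested, with overlapping summed levels of 1681 to 1724 and 1503 to 1750 CPM. The number higher was 2 without Tet TKO 1, 3 without Tet TKO 2 and 8 without quad KO 3. The laminin gene Lama1 fell from 36.02, 37.72 and 37.15 to 12.4, 7.92 and 8.76 CPM (-1.90 ± 0.15, adjusted p = 0.000128), Hnf4a by 1.69, Gata6 by 1.15 and Sox7 by 1.13. Gata4, which acts beside Gata6 in primitive endoderm, rose from 4.29 to 5.05 CPM to 7.54 to 9.76 CPM (0.87 ± 0.12, adjusted p = 0.00154). Of 20 blood and endothelial markers 8 had no read in any library and 6 were tested. Tal1 (1.47), Cd34 (0.85) and Tek (0.31) rose, and Pecam1 (-0.71) and Gata1 (-0.85) fell, while the pan-leukocyte gene Ptprc stood at 0.289 to 0.933 CPM. These are bulk libraries, in which fewer cells of a type and less RNA per cell cannot be told apart. The part of other cells in the results above was not tested.

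DNA methylation factors were 11 lower and 4 higher of 26. The number lower was 6 without Tet TKO 2, Tet TKO 3 or quad KO 1. The de novo methyltransferase gene Dnmt3a fell from 390, 385 and 391 to 217, 123.1 and 190 CPM (-1.18 ± 0.18, adjusted p = 0.00199). Its cofactor gene Dnmt3l fell from 644, 644 and 658 to 363, 398 and 291 CPM (-0.90 ± 0.10, adjusted p = 0.000521), and Uhrf1, which brings DNMT1 to replicated DNA, fell by 0.42 ± 0.05 (adjusted p = 0.000578). Dnmt3b rose from 491 to 511 CPM to 546 to 597 CPM (0.19 ± 0.04, adjusted p = 0.0101), a call that was lost without Tet TKO 1. Dnmt1 was not called (-0.07 ± 0.04, adjusted p = 0.187). Genes of both de novo enzymes thus moved in opposite directions.

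Of 57 SMC proteins and heterochromatin factors, 16 were lower (28.1%) and 6 higher (10.5%), Smchd1 included. Over all genes tested 20.6% were lower and 17.1% higher. Without Tet TKO 2 there were 10 lower, and without quad KO 3 there were 10 higher. After Smc1b and Smchd1 the clearest changes were those of Ezh2, the Polycomb methyltransferase gene on chromosome 6, from 323, 327 and 329 to 252, 235 and 240 CPM (-0.43 ± 0.04, adjusted p = 0.000226), and of Suv39h1, the X-linked H3K9 methyltransferase gene, from 32.5, 29.7 and 29.9 to 51.0, 44.3 and 54.9 CPM (0.69 ± 0.09, adjusted p = 0.000786). Suv39h2 rose by 0.29, Daxx fell by 0.34 and the meiotic cohesin gene Rad21l rose by 1.02.

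Replication-dependent histone genes moved a little and nearly in 1 direction, with 32 lower and 1 higher of 63 and a median of -0.19. Without Tet TKO 2 and Tet TKO 3 the numbers lower were 19 and 20. Hist1h1c went from 562, 592 and 575 to 462, 455 and 442 CPM (-0.35 ± 0.04, adjusted p = 0.000363). These genes are close copies of each other. Genes of the ATF4 and unfolded protein response were 15 lower and 2 higher of 26, and 8 and 9 lower without Tet TKO 2 and Tet TKO 3. Among the falls were the transcription factor gene Atf5 (-0.86), the folate enzyme gene Mthfd2 (-0.69), the cystine transporter gene Slc7a11 (-1.25), Asns (-0.47) and Slc7a3 (-0.62). Hspa5, the endoplasmic reticulum chaperone gene, rose by 0.22.

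Interferon and RNA sensor genes were 9 lower and 2 higher of 23. The oligoadenylate synthetase genes Oas1a (-1.11) and Oas2 (-1.03), the chemokine gene Cxcl10 (-1.06) and the RNA sensor gene Ddx58 (-0.41) fell, and Ifitm1 and Ifitm3 rose by 0.96 and 0.41. With a filter at 2 CPM 5 members were lower. Of 26 p53 target genes, 7 were higher (26.9%) and 3 lower (11.5%), beside 17.1% and 20.6% of all genes tested. Without quad KO 2 and with DESeq2, 12 were higher. Perp rose from 108, 106 and 107 to 175, 177 and 177 CPM (0.72 ± 0.04, adjusted p = 2.02e-05), while Cdkn1a (0.22) and Mdm2 (0.26) were not called.

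Mitochondrially encoded genes were 7 higher and 0 lower of 16, with summed levels of 12558, 12506 and 15103 CPM in Tet TKO and 15650, 15651 and 17885 CPM in quad KO. Tet TKO 3 thus lay nearer to quad KO than did Tet TKO 1 and 2. mt-Nd1 rose by 0.36 and mt-Cytb by 0.51. mt-Nd1 was not called after quantile normalization. Glycolysis and hypoxia genes were 8 lower (32%) and 3 higher (12%) of 25, beside 20.6% and 17.1% of all genes tested. They were 5 lower with chromosome medians set to 0 and without quad KO 1 or any 1 Tet TKO library. The phosphofructokinase gene Pfkp fell from 148, 149 and 154 to 46.1, 28.1 and 22.3 CPM (-2.27 ± 0.22, adjusted p = 0.000299). Hk2 and Gapdh, both on chromosome 6, fell by 0.50 and 0.24, and with chromosome medians set to 0 the change of Gapdh was 0.02 (adjusted p = 0.745).

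Cholesterol synthesis genes were 3 higher and 3 lower of 24 (12.5% each), below the 17.1% and 20.6% of all genes tested. The X-linked sterol isomerase gene Ebp fell from 29.5, 31.6 and 30.96 to 13.5, 11.5 and 10.5 CPM (-1.34 ± 0.10, adjusted p = 9.9e-05). Without quad KO 3, 12 members were higher, and without any 1 Tet TKO library 0. Of 80 cytosolic ribosomal protein genes, 6 were higher (7.5%) and 10 lower (12.5%), again below the shares over all genes tested. The lower genes included Rpl39l (-3.14 ± 0.21, adjusted p = 7.57e-05), Rpl10l (-1.38) and Rpl3l (-1.13), paralogs with restricted expression. Rpl39l, which has a ribosomal role in male germ cells, went from 8.28, 10.2 and 9.40 to 0.936, 0.318 and 0.646 CPM. Of the ubiquitous members, Rpl32 fell by 0.35 and Rpl10 by 0.35; they are on chromosomes 6 and X, and Rpl32 was not called with chromosome medians set to 0. The number higher ranged from 1 without Tet TKO 2 to 13 without quad KO 3.

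To see how the same gene groups stood when Smchd1 was lost with the Tet genes present, levels of 6 Smchd1 KO and 6 WT columns of the other table were set beside these. That table was normalized on its own and its columns are 3 replicates per genotype in repeat runs, so no test was made and a group is described by how many genes had every Smchd1 KO column above, or below, every WT column. Over the 14419 genes tested here and expressed there, 17.4% lay above and 21.1% below. Of the 468 genes that were at least 2-fold lower in quad KO, 429 were expressed there, and 28.7% of these lay above and 10.96% below. Of the 203 that were at least 2-fold higher, 168 were expressed there, and the shares were 22.6% and 7.14%.

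The gene groups parted at this point. All 23 of the tested 2-cell genes lay above WT in Smchd1 KO, with a median log2 ratio of 2.13. The lists were chosen with earlier results of these data known, so this count describes the list and is no independent result. Their median change in quad KO against Tet TKO was -0.33. Zscan4d had a mean of 3.35 CPM in WT and of 16.7 CPM when Smchd1 was lost, with Tet TKO at 11.96 CPM and quad KO at 9.27 CPM. Gm2016 had means of 0.982 CPM in WT, 6.98 CPM when Smchd1 was lost and 0.995 CPM in Tet TKO, so members of the list differed in where Tet TKO lay, and levels cannot be tested across the tables. Of 11 X-linked family members expressed in the other table, 1 lay above and 0 below, with a median log2 ratio of 0.08. Germline genes lay above WT for 21 and below for 1 of 40, while in quad KO 21 of 41 fell and 12 rose. Xlr3a had a mean of 1.65 CPM in WT, and 18.5 CPM in Tet TKO. The 2 tables share no library, and whether the response to Smchd1 loss differs between cells with and without the Tet genes was not tested.

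**Figure D5:**
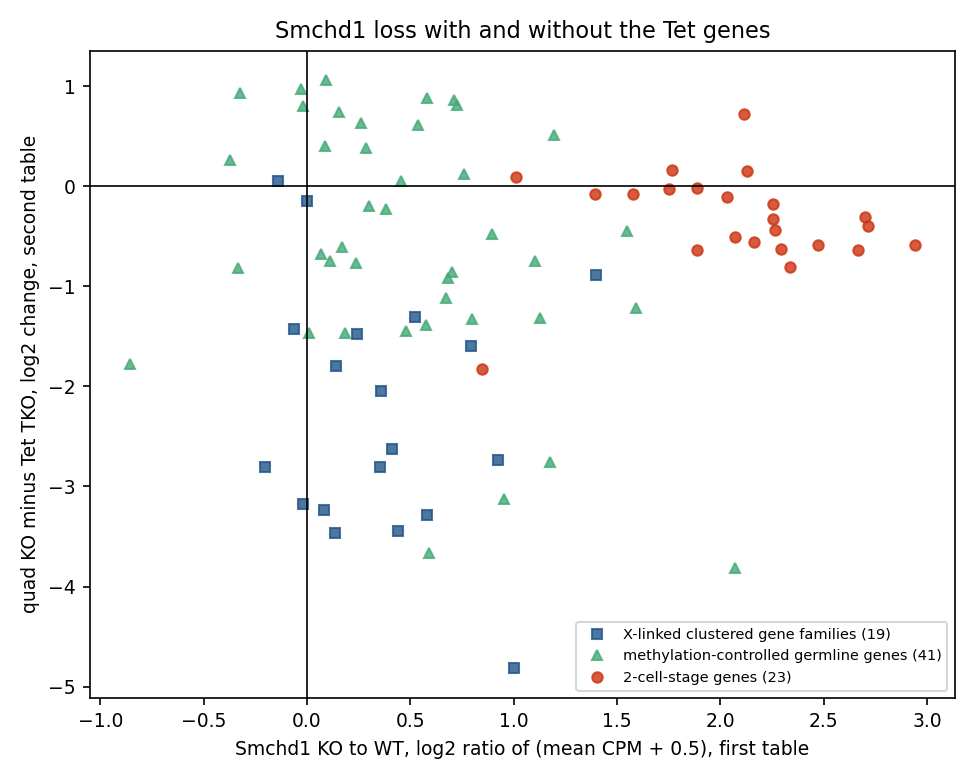
Each point is a gene of 3 lists: its log2 ratio of mean levels, Smchd1 KO to WT, in the table of Tet-carrying cells (x axis) and its log2 change, quad KO minus Tet TKO (y axis). The 23 2-cell-stage genes lie to the right of 0 and mostly near or below 0 on y, the X-linked families lie at smaller values on x and mostly far below 0 on y, and germline genes spread on both sides of 0 on y.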

How the data were processed

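The labels' protocols describe ribosomal RNA depletion libraries of total RNA from ES cells, and the submitters' processing notes name Trim Galore, STAR 2.5.1, the mm9 build and limma 3.38.2. The counting tool, its use of strand, the annotation release and filters are not given in the sources used here. The authors deposited a signal per gene, in CPM of the effective library size, in 2 tables normalized separately. In the table used here, 3 WT columns could be tied to none of the samples and were not used. Values below 200 reads came out as whole reads within 0.1 read.

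Values were compared with limma 3.58.1 in R 4.3.3 (two-sided, trend, no block) on log2(CPM + 0.5) for genes that reached 0.5 CPM in 3 or more of the 6 libraries, with Benjamini-Hochberg adjustment over all genes tested. A gene was called at an adjusted p under 0.05. The fit was tested on simulated data. Alternatives were pseudocounts of 0.1 and 2, no filter and a filter at 2 CPM, quantile normalization, a replicate block, chromosome medians set to 0, leaving out each library, and edgeR 4.0.16 and DESeq2 1.42.0 on the recovered reads. Chromosomes came from GENCODE M21 and promoter windows from RefSeq (GRCm38.p6).

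The 27 gene lists and the members were chosen with earlier results of these data known. Named genes are Smchd1 and the Tet genes, the 12 largest rises and falls among called genes whose groups do not overlap, and, in each list, the 4 called members with the smallest adjusted p and the most abundant member. Other members are named to show the spread of a list and were chosen after their values were seen.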

Additional observations from a re-analysis of the deposited data

Results flagged for a closer look

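For 29 of the 144 named genes, every quad KO library lay on 1 side of every Tet TKO library while every Smchd1 KO column of the other table lay on the opposite side of every WT column. Most named genes were picked as called, and over all genes tested 17.4% lie above WT and 21.1% below it in this way in the Tet-carrying cells, so the count itself is not read as a result. The tables were normalized separately and share no sample, so the difference between the 2 effects was not tested. Below, the first value is the log2 change of quad KO against Tet TKO and the second is the log2 ratio of mean levels, Smchd1 KO to WT.

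The following genes fell in quad KO and lay above WT in Smchd1 KO. Hormad2 (-3.12, 0.95), Smc1b (-2.76, 1.18), Fkbp6 (-3.66, 0.59), Tuba3a (-1.44, 0.48) and Rpl39l (-3.14, 1.74) are known from germ cells. The X-linked genes were Pnma5 (-3.84, 0.92), 1700013H16Rik (-3.81, 2.07) and the 2-cell-stage gene Usp26 (-1.83, 0.85), and a further 2-cell-stage gene was Gm2016 (-0.81, 2.34). Pfkp (-2.27, 0.59), Ankrd37 (-1.23, 0.61), Gdf15 (-1.27, 0.58), Oas2 (-1.03, 0.47), Nefm (-2.95, 0.89), Hnf4a (-1.69, 1.47) and Fgf4 (-0.75, 0.42) moved the same way.

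In the other direction, genes that rose in quad KO lay below WT in Smchd1 KO. These were the lineage genes Cdx2 (1.57, -1.14), Mixl1 (0.73, -0.71) and Nes (0.76, -0.56), the Fgf feedback genes Dusp6 (0.38, -0.95) and Spred1 (0.44, -0.67), and the X-linked Fndc3c1 (1.88, -0.56) and Suv39h1 (0.69, -0.28). Fermt1 (1.56, -0.57), Lin28a (0.20, -0.38) and Zfp281 (0.14, -0.39) followed, as did the mitochondrially encoded mt-Nd1 (0.36, -0.40), mt-Nd2 (0.47, -0.44) and mt-Cytb (0.51, -0.49).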

How the results depend on the processing

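Against 5619 genes called, leaving out 1 library gave 3541 to 7638, and the 3 lowest of these counts, 3541, 3661 and 3712, each lacked a Tet TKO library. edgeR called 5708 genes, 5491 of them shared with limma, and DESeq2 5367, with 5136 shared. Pseudocounts of 0.1 and 2 gave 5591 and 5639, no filter 5397 and a filter at 2 CPM 4917. Quantile normalization gave 5930 calls, of which 3131 were higher and 2799 lower, against 2546 and 3073. With chromosome medians set to 0 there were 5272. The correlation of same-numbered libraries' deviations was 0.01, 0.02 and -0.03, so the numbers do not pair the libraries, and the replicate block gave 4913 calls, 4812 of them shared. Of the genes named by the rule, Gapdh turned from -0.24 to 0.020 (adjusted p = 0.745, limma) with chromosome medians set to 0, and no other called gene among them reversed in the alternatives run. Hells, Ifitm3, Srebf1 and Nsdhl lost their calls in 3, 5, 3 and 6 alternatives. The X-linked Nsdhl went from -0.37 to -0.14 (adjusted p = 0.332) and Tet3 gained a call (0.29) with chromosome medians set to 0. Median signs flipped for the 2-cell genes (0.14 without quad KO 2), SMCHD1 imprinted targets (0.04 with chromosome medians set to 0), Nodal and Fgf genes (0.01 after quantile normalization), endoderm markers (-0.02 without quad KO 2 or 3) and blood markers (-0.06 with no filter). The cause was not tested. With 3 libraries a group, and quad KO libraries that differ on whole chromosomes and Y genes, clone and genotype cannot be told apart. Low counts limit genes near 0.5 CPM, where the pseudocount sets the size of a change.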
